A study of Mus musculus with 248 samples.

Results

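Genes named for cluster of differentiation (CD) antigens were examined in single hematopoietic stem cells (HSCs) of mice, sorted by their mitochondrial membrane potential (MMP). Members were all symbols made of Cd followed directly by a digit in any of 3 deposited gene tables, leaving out Cd79a and names ending in ap, bp or bpa. There were 40 such genes among the 7272 symbols of the 3 tables. The list of highly variable genes held 33 of them, the table of MMP-low against MMP-high held 15, and the table of cell clusters A to E held 15.

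The cells came from C57Bl6 mice and were lineage-negative, Sca1 positive, cKit positive, CD150 positive and CD48 negative, so that MMP-low and MMP-high cells shared this surface profile and differed by the potential they were sorted for. Each library held 1 cell, with 122 libraries for MMP-low and 126 for MMP-high. No animal, age, sex or day of sorting is named for any cell. Each MMP group was therefore treated as 1 sample, without replicates. The authors' p-values quoted below take single cells as observations, so they do not measure the spread between animals or sorts. The labels do not say which antigens the lineage stain covered.

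A CD number names a leukocyte surface molecule recognised by a set of antibodies, and the numbers follow the order of description, not a shared function or sequence. Blood cells gain and lose these molecules as they mature, which is why HSCs can be sorted by them. CD34, CD48 and CD27 part stem cells from progenitors in the mouse, CD79B and CD4 mark lymphoid cells, and CD14, CD33 and CD177 mark myeloid cells. An RNA level need not follow the amount of protein at the surface.

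By common use of the protein, 10 members were stem or progenitor antigens, 14 lymphoid, 8 myeloid and 8 of other or broad use. Not every member is a surface antigen of the usual kind. Cd2bp2 encodes a nuclear protein that binds the tail of CD2 and was kept because its name ends in a digit. Cd68 and Cd74 encode proteins found largely in endosomes and lysosomes, and Cd1d2 is annotated in RefSeq as a transcribed pseudogene. Some members belong to common families. Cd37, Cd53, Cd81, Cd82 and Cd151 are tetraspanins, Cd48 and Cd84 are SLAM receptors, Cd28, Cd86 and Cd274 belong to the B7 and CD28 families of costimulation, and Cd55 and Cd59a restrain complement.

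**Figure D1:**
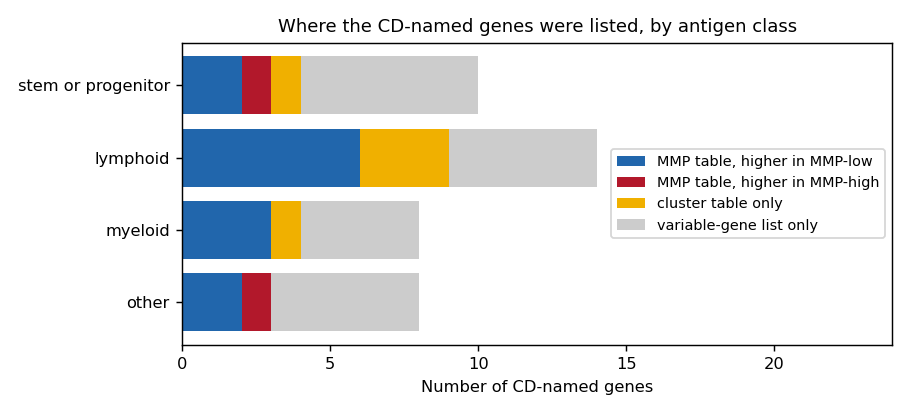
Number of CD-named genes (x axis) in each antigen class (y axis), coloured by the deposited table that listed them. Between the MMP groups, 13 members stood on the MMP-low side and 2 on the other, and 20 of 40 members were in the variable-gene list only.

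Promoters of 5 members are shown, chosen after their values were seen. Cd177, Cd33 and Cd53 were higher in MMP-low and share the authors' terms for neutrophil granule membranes. Cd274 and Cd44 were the members the authors' deposited table listed toward MMP-high, each with an authors' adjusted p of 1. Each window runs from 250 bases before to 50 bases after a transcript start of the gene, 5′ to 3′ in the gene's orientation, from RefSeq (GRCm38.p6), the assembly also called mm10. For Cd33 and Cd274 that start lies 4.3 and 5.3 kb inside the gene's whole RefSeq span, and for the others at most 23 bases inside it. The RefSeq table held a promoter for 25 of the 40 members. Capitals mark matches, on either strand, to GAGGAAGT (a PU.1-type ETS site), TGTGGT (the RUNX core) and TATAAA (the TATA box).
Cd177: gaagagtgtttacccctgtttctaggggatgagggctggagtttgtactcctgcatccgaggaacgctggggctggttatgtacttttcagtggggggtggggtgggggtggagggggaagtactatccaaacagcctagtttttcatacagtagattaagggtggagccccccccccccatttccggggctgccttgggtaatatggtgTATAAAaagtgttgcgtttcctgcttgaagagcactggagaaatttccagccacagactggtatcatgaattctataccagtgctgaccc
Cd33: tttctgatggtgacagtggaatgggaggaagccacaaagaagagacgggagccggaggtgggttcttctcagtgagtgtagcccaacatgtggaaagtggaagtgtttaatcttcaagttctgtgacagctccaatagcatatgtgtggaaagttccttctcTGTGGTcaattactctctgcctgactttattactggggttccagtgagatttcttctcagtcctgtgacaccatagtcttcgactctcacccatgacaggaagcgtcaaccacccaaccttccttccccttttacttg
Cd53: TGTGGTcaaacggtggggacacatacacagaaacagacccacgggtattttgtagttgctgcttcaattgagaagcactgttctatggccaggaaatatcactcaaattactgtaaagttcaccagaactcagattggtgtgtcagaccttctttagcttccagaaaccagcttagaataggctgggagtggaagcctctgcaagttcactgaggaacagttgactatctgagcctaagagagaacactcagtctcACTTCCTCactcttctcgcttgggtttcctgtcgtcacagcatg
Cd274: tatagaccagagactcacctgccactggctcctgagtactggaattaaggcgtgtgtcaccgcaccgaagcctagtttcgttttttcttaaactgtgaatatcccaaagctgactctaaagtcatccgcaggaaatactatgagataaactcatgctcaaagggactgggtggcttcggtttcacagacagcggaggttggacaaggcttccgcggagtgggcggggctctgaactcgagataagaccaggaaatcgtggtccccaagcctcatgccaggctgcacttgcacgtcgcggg
Cd44: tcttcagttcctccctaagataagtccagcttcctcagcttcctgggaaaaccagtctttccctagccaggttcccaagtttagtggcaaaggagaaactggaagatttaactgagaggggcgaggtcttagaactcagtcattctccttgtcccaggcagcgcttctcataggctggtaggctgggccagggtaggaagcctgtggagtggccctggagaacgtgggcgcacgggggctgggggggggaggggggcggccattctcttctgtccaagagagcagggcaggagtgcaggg
The windows lie at chr7:24760262-24760561 (minus strand) for Cd177, chr7:43533122-43533421 (minus) for Cd33, chr3:106790100-106790399 (minus) for Cd53, chr19:29367188-29367487 (plus) for Cd274 and chr2:102901616-102901915 (minus) for Cd44.

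Cd53 held GAGGAAGT as its reverse complement at bases 257 to 264 of the window and TGTGGT at bases 1 to 6. Cd33 held TGTGGT at bases 163 to 168, and Cd177 held TATAAA at bases 211 to 216. The windows of Cd274 and Cd44 held none of these letters. Among all 32851 mouse promoters of the table, 3.2% held GAGGAAGT, 16.8% held TGTGGT and 13.6% held TATAAA on either strand. Of the 25 members with a promoter, 5 (Cd300lf, Cd37, Cd53, Cd72 and Cd82) held GAGGAAGT, 8 held TGTGGT and 4 held TATAAA. None of the 3 motifs contains another. A match describes letters in a window and is not evidence of binding.

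The first comparison asked how these antigens differ between HSCs of low and high potential. Of the 15 members in the MMP table, 6 were lymphoid, 3 myeloid, 3 stem or progenitor antigens and 3 of other use. All of the listed lymphoid and myeloid antigens stood on the MMP-low side, and 5 of the 6 and 3 of the 3 passed the authors' adjusted p of 0.05 by the authors' deposited table. The lymphoid class is broad. The 5 were Cd28, Cd52, Cd53, Cd74 and Cd86, of which Cd53, Cd74 and Cd86 are not confined to lymphoid cells. Cd79b, of the B cell receptor, did not pass. By the authors' deposited table, 13 members stood on the MMP-low side and 2 on the MMP-high side, beside 5.86% and 5.67% of the 16203 genes taken as tested. With the authors' adjusted p under 0.05, 8 and 0 members were left, beside 3.33% and 3.69% of all genes. Because being listed is a way of becoming a member, these counts are a description. The list of variable genes does not use the MMP groups. Of its 33 members, 11 (33.3%) were also listed toward MMP-low and 1 (3.03%) toward MMP-high, where 11.7% and 5.49% of all 5624 variable genes were.

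Each value below is an average log fold change in a base the file does not state, or the percent of cells in which a gene was detected. The authors listed genes with a log fold change of at least 0.25. How many cells stand behind a percentage is not stated. It was fewer than the libraries of each group. Cd14 at 63.8% in MMP-low and Cd86 at 12.6% in MMP-high match no whole number of cells out of all libraries. The cell numbers were not worked out, so no interval is printed. The median log fold change of the 13 members toward MMP-low was 0.35 by the authors' deposited table, beside 0.36 for all 949 genes on that side. Their median difference in detection was 26.4 percentage points, beside 11.5 for all genes on that side. The difference was at least 20 points for 7 of these 13, as for 37.3% of all genes listed there, and for 1 of 2 members toward MMP-high, as for 48.5%.

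**Figure D2:**
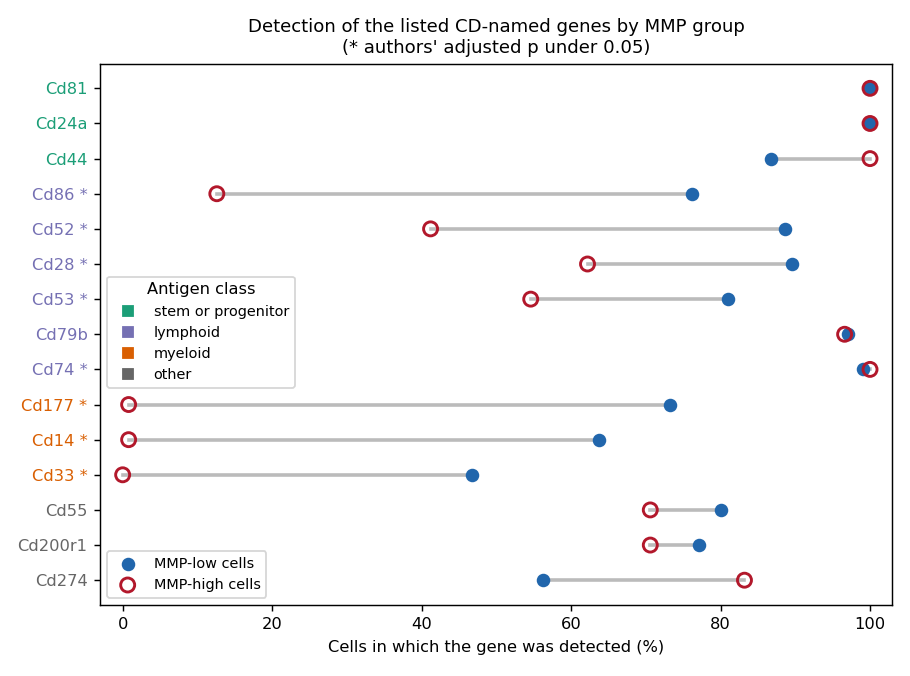
Percent of cells in which each of the 15 listed CD-named genes was detected (x axis), with filled points for MMP-low and open circles for MMP-high, and gene names coloured by antigen class. Cd177, Cd14 and Cd33 were found in at most 0.8% of MMP-high cells, while Cd81 and Cd24a were found in 100% of both groups.

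All 3 listed myeloid antigens were found in many MMP-low cells and in few or no MMP-high cells. Cd177, a GPI-anchored glycoprotein of neutrophils, was found in 73.3% of cells in MMP-low and 0.8% in MMP-high by the authors' deposited table. Its log fold change was 0.69 (authors' adjusted p = 4.08e-24), and by p it ranked 2 of the 949 genes higher in MMP-low. Cd14, the coreceptor for bacterial lipopolysaccharide on monocytes and neutrophils, was found in 63.8% and 0.8% of cells by the authors' deposited table, with a log fold change of 0.32 (authors' adjusted p = 2.87e-19). Cd33, a sialic acid-binding receptor of myeloid cells, was found in 46.7% of MMP-low cells and listed at 0% in MMP-high, with a log fold change of 0.34 (authors' adjusted p = 1.35e-12) by the authors' deposited table. These 3 members had detection of at most 1% in MMP-high, as did 5.58% of all genes listed toward MMP-low.

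The other 5 myeloid members were not in the MMP table. These were Cd68, a lysosomal glycoprotein of macrophages, Cd163, the macrophage scavenger receptor for haemoglobin bound to haptoglobin, Cd300a and Cd300lf, paired immunoglobulin-like receptors, and Cd302, a C-type lectin receptor. All of them were variable genes by the authors' list. Absence from the table means only that the thresholds were not met. Cd300a and Cd300lf lie 214.3 kb apart on chromosome 11, and reads of this family may be split between similar copies.

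Markers of neutrophils and B cells moved with the MMP groups. Of 10 neutrophil genes, 7 stood on the MMP-low side by the authors' deposited table, all with an authors' adjusted p under 0.05, each found in 100% of MMP-low cells and in 30.3% to 100% of MMP-high cells. Prtn3 stood on the MMP-high side, with an authors' adjusted p of 1, and the granule genes Mpo and Elane were not in that table. Of 8 B cell genes, 6 stood on the MMP-low side by the authors' deposited table, where 5 passed the authors' adjusted p of 0.05 and Cd79b did not, with detection of 61% to 97.1% in MMP-low and 0% to 96.6% in MMP-high. Ighm, Igkc, Igll1 and Cd79a were listed at 0% in MMP-high. Of all 16203 genes, 5.86% were listed toward MMP-low and 5.67% toward MMP-high, and 3.33% and 3.69% passed the authors' adjusted p. The part of such cells or their RNA in the values of the myeloid and lymphoid members was not tested.

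Lymphoid antigens differed in 2 ways, by the share of cells in which they were detected or by level. Cd86, the costimulatory ligand of antigen-presenting cells, was found in 76.2% of cells in MMP-low and 12.6% in MMP-high by the authors' deposited table, with a log fold change of 0.35 (authors' adjusted p = 2.33e-17). Cd28, the costimulatory receptor of T cells that CD86 engages, was found in 89.5% and 62.2%, with a log fold change of 0.28 (authors' adjusted p = 4.51e-06) by the authors' deposited table. Ligand and receptor were thus higher on the same side. Cd274, which encodes the inhibitory B7 ligand PD-L1, was listed on the other side but did not pass the authors' adjusted p threshold, unlike Cd86 and Cd28. That side also had more detected genes per library over all libraries. Whether Cd274 and this pair are opposed was not tested.

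Cd52, a short GPI-anchored peptide of lymphocytes, was found in 88.6% of cells in MMP-low and 41.2% in MMP-high by the authors' deposited table. Its log fold change was 0.60 (authors' adjusted p = 6.16e-10). The tetraspanin Cd53 of leukocytes was found in 81% and 54.6%, with a log fold change of 0.33 (authors' adjusted p = 0.000144) by the authors' deposited table. Both genes were thus also detected in a large share of MMP-high cells, unlike the 3 myeloid antigens.

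Cd74, the invariant chain that guides MHC class II molecules through the cell, differed by level alone. It was found in 99% of cells in MMP-low and 100% in MMP-high by the authors' deposited table, with a log fold change of 1.08 (authors' adjusted p = 7.1e-10). By fold it ranked 24 of the 949 genes toward MMP-low, and no other member had a larger fold. Cd79b, a signalling chain of the B cell receptor, was found in 97.1% and 96.6% of cells with a log fold change of 0.29 by the authors' deposited table, and its authors' adjusted p was 1. The left-out partner chain, Cd79a, was listed at 0% in MMP-high and 61% in MMP-low. The 2 chains of the receptor therefore differed in detection in MMP-high cells.

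The remaining 8 lymphoid members were not in the MMP table. Among these were Cd247, the zeta chain of the T cell receptor complex, Cd69, an early activation antigen, Cd72, an inhibitory coreceptor of B cells, and Cd96, a receptor of T and natural killer cells. These 4 were variable genes by the authors' list and were in neither of the other tables. Cd4, Cd37 and Cd84 were in the cluster table.

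**Figure D3:**
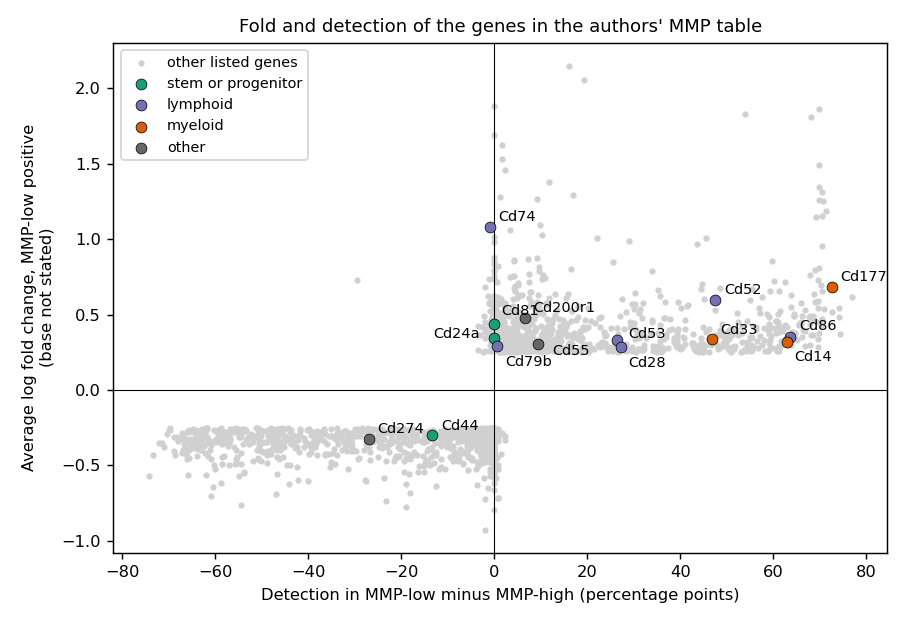
Average log fold change (y axis, positive toward MMP-low, base not stated) against the difference in detection between MMP-low and MMP-high (x axis, percentage points) for all 1868 listed genes in grey and the 15 CD-named genes in colour. Cd74 has the largest fold of the members, at 1.08, with a detection difference of -1 point, while Cd177 has the largest difference, at 72.5 points.

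Of 10 stem and progenitor antigens, the authors' deposited table listed 2 toward MMP-low and 1 toward MMP-high, and none of these passed the authors' adjusted p of 0.05. In the other classes, 6 of 14 lymphoid, 3 of 8 myeloid and 3 of 8 other members were listed. Cd81, a tetraspanin, was found in 100% of both groups with a log fold change of 0.44, and Cd24a, the heat-stable antigen of immature blood cells, in 100% of both with 0.35, each with an authors' adjusted p of 1 by the authors' deposited table. Cd44, the receptor for hyaluronan, was found in 100% of cells in MMP-high and 86.7% in MMP-low by the authors' deposited table. Its log fold change toward MMP-high was 0.30 (authors' adjusted p = 1, unadjusted p = 7.86e-05).

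Cd34, Cd27, Cd48, Cd93, Cd82 and Cd151 were in the list of variable genes and in neither other table. CD34 marks short-lived mouse stem cells and progenitors, CD27 is a receptor of the tumour necrosis factor family, CD93 is carried by early progenitors and endothelium, and CD82 and CD151 are tetraspanins. Cd48, the gene of the antigen against which the cells were sorted, was thus variable among them at the RNA level and was not listed as different between MMP groups or clusters. Its protein binds CD244. Values of these 6 genes per group are not given in the tables used here.

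Of the members of other or broad use, 3 of 8 were in the MMP table. Cd55, which speeds the decay of complement convertases, was found in 80% of cells in MMP-low and 70.6% in MMP-high, with a log fold change of 0.30 (authors' adjusted p = 0.211) by the authors' deposited table. Cd200r1, the inhibitory receptor for CD200 on myeloid cells, was found in 77.1% and 70.6% with a log fold change of 0.48 (authors' adjusted p = 0.406) by the authors' deposited table. Its ligand gene, Cd200, was in the variable list only. Cd274 was found in 83.2% of cells in MMP-high but in 56.2% of those in MMP-low, its log fold change toward MMP-high being 0.32 (authors' adjusted p = 1, unadjusted p = 0.000348) by the authors' deposited table. Reads of Cd200r1 may be split with related receptor genes next to it.

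Cd1d1, which presents lipids to natural killer T cells, and its pseudogene copy Cd1d2 lie 6.3 kb apart on chromosome 3 and were both variable genes. The assignment of reads between such copies is uncertain. Cd248, known from stromal cells and pericytes, and Cd2bp2 were also variable genes only.

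The second comparison asked which antigens set the authors' clusters A to E apart. The clusters were made from the same cells and genes, so their values are a description and not a test. The authors' deposited cluster table listed 7 members for A, 8 for B, 3 for C, and 0 for D and for E. The background was 5.27% of 16203 genes for A, 4.16% for B, 5.12% for C, 3.23% for D and 2.8% for E. With the authors' adjusted p under 0.05, 5 members were listed for A (4.05% of genes), 6 for B (1.64%), 1 for C (3.07%), 0 for D (1.86%) and 0 for E (1.12%). Of the 33 variable members, 9 (27.3%) were in the cluster table, where 29.4% of all variable genes were.

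**Figure D4:**
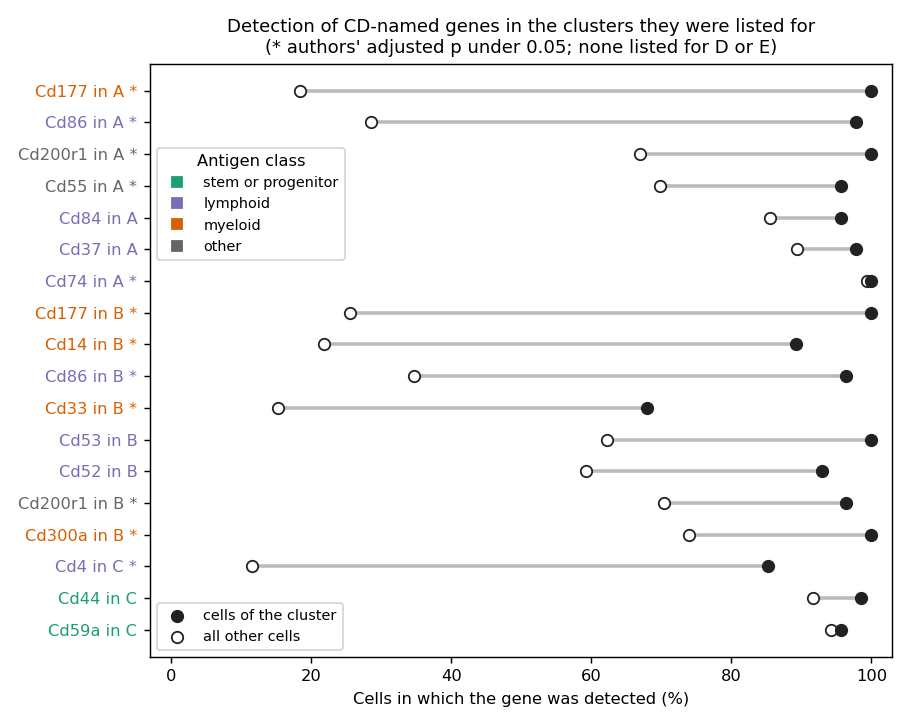
Percent of cells in which a CD-named gene was detected (x axis), with filled points for the cells of the cluster named beside the gene and open points for all other cells. Cd177 reached 100% in A and in B, Cd4 reached 85.3% in C against 11.5% elsewhere, and Cd37, Cd44, Cd59a, Cd74 and Cd84 were found in most cells on both sides.

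Of 8 myeloid antigens, 4 were in the cluster table, listed for A or B, while Cd68, Cd163, Cd300lf and Cd302 were listed for no cluster. Cd177 was found in 100% of cluster A against 18.4% of other cells and in 100% of cluster B against 25.5% by the authors' deposited table. Its log fold change was 0.41 for A and 0.67 for B (authors' adjusted p = 8.14e-26 and 8.08e-11). Cd14 was listed for B alone, with detection of 89.3% against 21.9% and a log fold change of 0.55 (authors' adjusted p = 7.67e-06) by the authors' deposited table. Cd33 was also listed for B alone, at 67.9% against 15.3% with 0.73 (authors' adjusted p = 0.0185), as was Cd300a, at 100% against 74% with 0.31 (authors' adjusted p = 6.25e-05) by the authors' deposited table. Whether A and B differ in these genes was not tested, since each cluster was set against all other cells.

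Among lymphoid antigens, Cd86 was listed for both A and B. The authors' deposited table gave its detection as 97.8% of A against 28.5% and as 96.4% of B against 34.7%, with log fold changes of 0.46 and 0.31 (authors' adjusted p = 1.67e-16 and 0.000219). Cd74 was listed for A, at 100% against 99.4%, with a log fold change of 0.59 (authors' adjusted p = 1.19e-05) by the authors' deposited table. Cd84 and Cd37, a SLAM receptor and a tetraspanin of B cells, were listed for A as well, at 95.6% against 85.5% and at 97.8% against 89.4%, each with an authors' adjusted p of 1 by the authors' deposited table. Cd53 and Cd52 were listed for B, with detection of 100% against 62.2% and of 92.9% against 59.2% by the authors' deposited table. Their log fold changes of 0.57 and 0.93 had an authors' adjusted p of 0.136 and 1, although both passed the threshold between the MMP groups.

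Cd200r1 was listed for both A and B, at 100% against 67% and at 96.4% against 70.4%, with log fold changes of 0.29 and 0.67 (authors' adjusted p = 1.39e-07 and 0.00293) by the authors' deposited table. Cd55 was listed for A, at 95.6% against 69.8%, with 0.33 (authors' adjusted p = 0.00205) by the authors' deposited table. Both genes had missed the adjusted threshold between the MMP groups.

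The clusters held 5 members that the MMP table did not list, Cd37 and Cd84 for A, Cd300a for B, and Cd4 and Cd59a for C. Cd4, the T helper cell coreceptor for MHC class II, was found in 85.3% of cluster C against 11.5% of other cells, with a log fold change of 0.28 (authors' adjusted p = 2.93e-22) by the authors' deposited table. By detection difference it ranked 50 of the 830 genes listed for C. In the same cluster the granule protease Elane was found in 82.4% of cells and listed at 0% elsewhere, and 12 genes listed for C were found in at most 1% of other cells by the authors' deposited table. For A, B, D and E there were 0 such genes. Cd44 and Cd59a, the inhibitor of the complement membrane attack complex, were listed for C at 98.5% against 91.7% and at 95.6% against 94.2%, each with an authors' adjusted p of 1 by the authors' deposited table. Reads of Cd59a may be split with its related neighbour Cd59b.

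Marker genes of neutrophils and B cells were listed mostly for cluster B. Of the 10 neutrophil genes, the authors' deposited table listed 2 for A, 6 for B, 1 for C and 0 for D and E. Of the 8 B cell genes it listed 1 for A, 4 for B and 0 for C, D and E. Of all 16203 genes, 5.27% were listed for A, 4.16% for B, 5.12% for C, 3.23% for D and 2.8% for E. The single entries were Elane for C and, among B cell genes, Ighm for A. S100a9, listed for B, had an authors' adjusted p of 0.0806, and the other entries were under 0.05. The part of these marker genes in the values of Cd14, Cd33, Cd52, Cd53 and the other members of A and B was not tested.

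Of the 20 terms for MMP-low genes that held a member by the authors' deposited table, 3 held several, and these were terms of neutrophil granules. The other 17 held 1 member each, which was Cd28 in 13 of them. Several of these 13 had the same overlap of 15 of 98 genes, so they may count the same genes repeatedly. For MMP-low genes, neutrophil degranulation had an overlap of 65 of 487 genes (adjusted p = 2.71e-10) by the authors' deposited table, and the overlap held Cd14, Cd177, Cd33, Cd53 and Cd55. The term for the specific granule membrane (16 genes, adjusted p = 0.0031) and that for the tertiary granule membrane (12 genes, adjusted p = 0.0217) held Cd177, Cd33 and Cd53 by the authors' deposited table. For cluster B, neutrophil degranulation had 46 of 487 genes (adjusted p = 1.9e-06) and held Cd300a beside Cd14, Cd177, Cd33 and Cd53 by the authors' deposited table. For cluster A the same term had 50 of 487 (adjusted p = 6.22e-05) and held Cd177 and Cd55 by the authors' deposited table. In the authors' deposited table for A, 11 of 13 terms with a member held Cd74 alone, among them lysosomal membrane, 40 of 347 genes (adjusted p = 7.9e-06). Several of these 11 had an overlap of 22 genes with terms of similar size, so they too may count the same genes repeatedly.

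Antigens with a CD number or a use in sorting, but another gene name, were set beside the members. Of 60 such genes, 9 stood on the MMP-low side and 2 on the MMP-high side by the authors' deposited table, and 5 and 1 of these passed an authors' adjusted p of 0.05. Of all 16203 genes taken as tested, 5.86% and 5.67% were listed on these sides, and 3.33% and 3.69% passed. In none of the 3 tables were 23 of the 60. Slamf1, which encodes the sorting antigen CD150, was found in 76.2% of cells in MMP-low and 28.6% in MMP-high (log fold change 0.37, authors' adjusted p = 3.51e-11) by the authors' deposited table, although all cells had been sorted as CD150 positive. Slamf1 lies between Cd48 and Cd84 on chromosome 1, 61.9 kb from the former and 38.5 kb from the latter. Ly6a, the gene of Sca1, was found in 100% of both groups by the authors' deposited table, and Kit was in none of the 3 tables.

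Fcgr3, a low-affinity receptor for immunoglobulin G, was found in 94.3% of cells in MMP-low and 20.2% in MMP-high by the authors' deposited table (log fold change 0.48, authors' adjusted p = 2.82e-22). Procr, the stem cell antigen CD201, was found in 99% and 91.6% with a log fold change of 0.71 (authors' adjusted p = 7.54e-10) by the authors' deposited table. Itga4, the integrin chain CD49d, stood on the other side, at 97.5% of cells in MMP-high but 66.7% of those in MMP-low, and its log fold change was 0.34 (authors' adjusted p = 0.00313) by the authors' deposited table. In clusters D and E, which held no member, the cluster table listed Csf3r and Eng for D, and Flt3 was among those listed for E. Flt3, the CD135 receptor of multipotent progenitors, was found in 100% of E against 63% of other cells (log fold change 0.47, authors' adjusted p = 0.000556) by the authors' deposited table.

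Library depth differed between the groups. Libraries held a median of 2316.5 detected genes in MMP-low (range 514 to 3674) and 3795.5 in MMP-high (range 1130 to 5200). The order turned with the number in a library's title, whose meaning the labels do not give. For numbers of 85 or less, a median of 2500 genes was detected per MMP-low library and 4080 per MMP-high library (85 each), beside 472174 and 1035705 mapped reads. For higher numbers, 2083 genes were detected in the median of 37 MMP-low libraries and 1905 in that of 41 MMP-high libraries, beside 564476 and 454512 mapped reads. The sets did not overlap in MMP-high, at 2982 to 5200 genes and 1130 to 2948 genes. The 13 members listed toward MMP-low were thus on the side with fewer detected genes over all libraries, and Cd44 and Cd274 on the side with more. Detection of the members by library is not given, so none could be computed within these sets, and the part of depth in their values was not tested.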

How the data were processed

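Single-cell libraries of MMP-low and MMP-high HSCs were made with SMART-Seq v4 on the Fluidigm C1 system, per the labels' protocols, a chemistry without molecular identifiers. Reads went through bcl2fastq (2.17.1.14) and STAR (2.5.2b), with the build mm10, as far as the submitters' processing notes name tools. The authors deposited average log fold changes (base not stated), the fraction of cells detecting each gene, p-values and adjusted p-values, per the file headers, and MAST is named in the title of the MMP table. In the cluster table the adjusted p-value deposited is, as in the MMP table, 16203 times the p-value, capped at 1, and 16203 was read as the number of genes tested. Whether each of these genes was tested is not stated. If some were filtered out before, the shares given for all genes are too low. The fraction in the favoured group comes first in each row, whichever group it is. Mapped reads were deposited as a count per library by the authors. The sources used here do not give the annotation, the normalization or the detection threshold.

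Fractions were turned into percent with pandas 2.3.3, and members were matched by symbol with case ignored. The counting of members over both MMP sides was checked on simulated data, except with a log fold change of at least 0.5. Other counts were not checked in this way. No new test was made, since each group is 1 sample. Members, antigen classes and lists were chosen with earlier results of these data known, and the members are named in the text except 1, which is not reported here. Cd200r1, Cd1d2 and Cd2bp2 were put in a class after the tables were read. Alternatives were the adjusted p, a log fold change of at least 0.5, a detection difference of at least 20 points and other name rules. The neutrophil, B cell and companion lists stand in the text with their counts.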

Additional observations from a re-analysis of the deposited data

How the results depend on the processing

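With the authors' adjusted p under 0.05, the members toward MMP-low numbered 8 instead of 13 and those toward MMP-high 0 instead of 2, and the median log fold change over the listed members, positive toward MMP-low, was 0.34, as it was over all 15. With a log fold change of at least 0.5, the numbers were 3 and 0, and 7 of the 18 pairs of gene and cluster were left. With a detection difference of at least 20 points in the same direction, they were 7 and 1, and the median difference in detection over all 15 was 9.4 points toward MMP-low. Adding the left-out name, Cd79a, gave 14 and 2 genes and 19 pairs, and leaving out binding partners gave 13 and 2. An adjusted p under 0.05 left 12 pairs. Each count by MMP side had more members toward MMP-low. These settings take parts of the same listed genes or add Cd79a, so this is not an independent check. The number of cells behind a percentage and the depth of the cells in each cluster limit how precisely detection is known, and neither is stated in the tables used here. No paired analysis was possible, because no label ties a title number in MMP-low to the same number in MMP-high.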

Other observations

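The authors' deposited list of genes shared by MMP-low and an authors' dHSC list, headed as having an adjusted p under 0.05, held 3 members, Cd177, Cd52 and Cd200r1. For Cd200r1 the authors' deposited MMP table gives 0.406. It was 1 of 7 among the 99 shared genes with an adjusted p of 0.05 or more there, and 3 of 55 genes shared by MMP-high and an aHSC list were so as well. The second list held 0 members. What dHSC and aHSC stand for is not spelled out in the file.

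Cd28 stood in 13 of the terms the authors' deposited table gave for MMP-low genes, most of them on the control of RNA processing or gene expression. Several of these terms had the same overlap of 15 of 98 genes and may not be separate results. The costimulatory receptor of T cells that Cd28 encodes is not known for this.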
